A study of Mus musculus with 6 samples.

Results

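The genes of oxidative phosphorylation were examined in 6 poly(A)-selected RNA sequencing libraries of Lgr5-GFP+ cells from mouse small intestinal organoids. Members were the protein-coding genes whose symbol starts with mt-, Ndufa, Ndufb, Ndufc, Ndufs, Ndufv, Sdh, Uqcr, Cox4 to Cox8 or Atp5 and whose mean over the libraries was at least 5 CPM (a gene's share of all gene counts in its library, in the usual CPM scaling). Of 115 genes with these symbols, 99 passed the level threshold, among 10120 protein-coding genes in all that did so. The 99 members were 10 genes of the mitochondrial genome and 89 nuclear genes. The nuclear genes were 74 subunits, the inhibitor of ATP synthase Atp5if1, the subunit paralogue Ndufa4l2 and 13 assembly factors that share the symbol prefixes. Besides the symbol, members were chosen by their mean level, so their presence is a description. The 16 genes under the threshold included Ndufb8 at 3.53 CPM, Cox6b2 at 3.9 CPM and Atp5po at 4.68 CPM. Just above it were Sdhaf4 at 5.39 CPM, mt-Atp6 at 6.82 CPM and Ndufa4l2 at 7.69 CPM.

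All organoids carried Villin-CreERT2, an Lgr5-EGFP-IRES-CreERT2 allele and floxed Ythdf2 (Ythdf2fl/fl), so the controls had both Cre sources too. CreERT2 is a Cre recombinase that acts when 4-hydroxytamoxifen (4-OHT) binds it. The villin promoter drives it in the intestinal epithelium, and the Lgr5 allele drives it, with EGFP, in intestinal stem cells. Organoids received 4-OHT or ethanol (EtOH) as vehicle, given in the series text as 0.5 µM, and cells were sorted on day 4 or day 6. Day 6 is represented by 2 EtOH and 2 4-OHT libraries, and day 4 by 1 library for each treatment. The labels do not say whether replicates came from separate cultures, so p-values measure the spread between these samples, which may be technical. The day 4 libraries carry library names from another run of numbers and were not replicated, so day and sequencing batch cannot be told apart.

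Oxidative phosphorylation takes place in the inner mitochondrial membrane. Complex I accepts electrons from NADH and complex II from succinate, complex III passes them from ubiquinol to cytochrome c, and complex IV passes them to oxygen. Complexes I, III and IV pump protons, and complex V, the ATP synthase, uses the returning protons to make ATP. Complexes I, III, IV and V combine subunits from both genomes, and complex II is wholly nuclear encoded. Mitochondrial genes are transcribed as long precursors that are cut into single transcripts, whereas each nuclear subunit gene has its own promoter. In the intestine, stem cells of the crypt are known for active mitochondria.

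The sequence of the mitochondrial genome bears on which of its genes could be counted. In the mouse reference genome (GRCm39), bases 6394 to 11042 of the mitochondrial genome also stand in the nuclear genome at chr1:24650616-24655265, on the minus strand. The copy aligns in 2 blocks. The block of 3435 bases holds 1 mismatch (identity 99.97%), and the block of 1214 bases holds 0. All bases of mt-Co2, mt-Atp8, mt-Atp6, mt-Co3, mt-Nd3 and mt-Nd4l lie in the copied stretch, as do 63.6% of mt-Nd4 and 31% of mt-Co1. In mt-Nd1, mt-Nd2, mt-Nd5, mt-Nd6 and mt-Cytb, 0 bases do. The deposited files hold reads that align to several places in a summary line of their own, outside the genes. The first 60 coding bases of the 3 copied members are shown as examples of sequence that both places share. Each is identical, with 0 differences, at the chromosome 1 position given after it, so no base is in capitals.
mt-Co2 (chrM:7013-7072, plus strand, and chr1:24654587-24654646, minus strand): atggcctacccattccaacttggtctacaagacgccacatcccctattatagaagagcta
mt-Atp6 (chrM:7927-7986, plus strand, and chr1:24653673-24653732, minus strand): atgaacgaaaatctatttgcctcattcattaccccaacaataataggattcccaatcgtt
mt-Co3 (chrM:8607-8666, plus strand, and chr1:24652993-24653052, minus strand): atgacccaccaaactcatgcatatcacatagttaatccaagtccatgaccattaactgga

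The mismatch, T9461C (the mitochondrial base first, counted from the first base of the mitochondrial genome), lies in mt-Nd3. Both versions of bases 9431 to 9491 are shown with that base in capitals.
mitochondrial genome: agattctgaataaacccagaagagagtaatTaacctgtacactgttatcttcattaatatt
copy on chromosome 1: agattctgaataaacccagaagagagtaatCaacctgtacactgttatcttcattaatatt

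The libraries held 14345379 to 21461835 gene counts. Ythdf2, the targeted gene, went against its label. At day 6 its level was 82.7 and 76 CPM (EtOH) and 208 and 204 CPM (4-OHT) (log2 fold change 1.37, SE 0.16, edgeR quasi-likelihood F test, Benjamini-Hochberg adjusted p = 0.000872). At day 4 it was 76.1 CPM (EtOH) and 167 CPM (4-OHT). Counts over the whole gene do not show whether the floxed part was removed. Directions below are therefore those of the libraries labelled 4-OHT. Lgr5, the stem cell gene behind the sort, was at 209 to 368 CPM in every library. The summed level of 12 enterocyte markers was 2039 and 2128 CPM (EtOH) and 5021 and 4055 CPM (4-OHT) at day 6. Of these markers 8 were higher by the adjusted test (edgeR), and 2 of 10 stem cell markers were lower (0 without EtOH replicate 1). The stem cell markers did not all go the same way: 3 of the 10 had day 6 log2 fold changes above 0 (highest 0.62, median of the list -0.42). DESeq2 called 1 of them higher and 3 lower at day 6, and over both days edgeR called 1 higher and 1 lower. Of 8 goblet cell markers 2 passed the test, both higher, while 4 of the 8 had log2 fold changes below 0 (median of the list -0.09). The goblet list summed to 3380 and 3479 CPM (EtOH) and 2883 and 2597 CPM (4-OHT) at day 6. All 6 tested tuft cell markers had log2 fold changes below 0 (median -1.49), 1 of them past the test, and the list summed to 41.7 and 22.5 CPM (EtOH) and 12.7 and 10.4 CPM (4-OHT). The sum of 8 Paneth cell markers ran from 400 to 4969 CPM. Immune cell markers summed to 1.01 to 3.37 CPM and stromal markers to 4.98 to 13 CPM, with Lum at 0.

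None of the 99 members passed the test between the libraries labelled 4-OHT and EtOH at day 6. The smallest adjusted p was 0.636 (edgeR quasi-likelihood F test, Benjamini-Hochberg over 14066 genes), and 0 members had an unadjusted p under 0.05. Among all genes tested, 2.5% passed the adjusted threshold (2.25% higher and 0.242% lower) and 10.1% had an unadjusted p under 0.05. DESeq2 and limma-voom also called 0 members. The median log2 fold change of the members was -0.06, beside -0.013 over all genes tested. Their 95% intervals lay within a 1.5-fold change either way for 51 members and within 2-fold for 97, so a larger difference than 2-fold lay outside the interval of nearly every member. The median standard error was 0.19 on the log2 scale. In bulk samples, a change in the number of cells of a type and a change in RNA per cell cannot be told apart.

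The mitochondrial encoded members made up 3.37% to 4.32% of all gene counts. Their summed level was 36131 and 37431 CPM (EtOH) and 43127 and 37607 CPM (4-OHT) at day 6, and 38141 CPM (EtOH) and 32812 CPM (4-OHT) at day 4. The 89 nuclear members together made up 1.34% to 1.58% of the counts. They summed to 15960 and 13382 CPM (EtOH) and 13348 and 15022 CPM (4-OHT) at day 6, and to 13491 and 13196 CPM at day 4. The ratio of the mitochondrial to the nuclear sum at day 6 was 2.26 and 2.8 (EtOH) and 3.23 and 2.5 (4-OHT), and at day 4 it was 2.83 and 2.49. The groups overlapped in this ratio, which was lowest in EtOH replicate 1 and highest in 4-OHT replicate 1 of day 6. With only mt-Nd1, mt-Nd2, mt-Nd5, mt-Nd6 and mt-Cytb on the mitochondrial side, it was 0.855 and 0.996 (EtOH) and 1.37 and 0.875 (4-OHT) at day 6. The 3 wholly copied members added 14.6 to 59.7 CPM to the mitochondrial sum. Reads that match both places equally lie outside the genes, so the shares, sums and ratio are those of counted reads and not of all mitochondrial transcripts.

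The mitochondrial and the nuclear members leaned in opposite directions at day 6, by less than the spread between replicates. The median log2 fold change of the 10 mitochondrial members was 0.12, with 9 above 0 and none past the test. That of the 89 nuclear members was -0.09, with 71 below 0 and none past the test. Both leans rested on single libraries. Without 4-OHT replicate 1 the mitochondrial median was -0.16, and without 4-OHT replicate 2 it was 0.32. Without EtOH replicate 1 the nuclear median at day 6 was 0.11, with 74 of 89 members above 0.

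In EtOH replicate 1 of day 6, nuclear members stood above their mean over the 6 libraries by a median of 0.21 (log2 CPM), against -0.12 in the other EtOH replicate. This library was the highest of the 4 day 6 libraries for 69 of the 89 nuclear members and 2 of the 10 mitochondrial members, and for 31.6% of all genes tested. The shift was shared by 78 genes of the mitochondrial ribosome (0.21) and by the 1348 non-member genes whose canonical transcript is shorter than 1000 bases (0.19). Mitochondrial ribosome genes with such short transcripts were not taken out of the latter set, so the 78 and the 1348 are not separate observations. In the 12583 longer genes that were not members it was -0.02. With each library corrected for its trend on transcript length, the nuclear median at day 6 was -0.03. The part of transcript length in the shift was not tested further. The mitochondrial members stood highest in 4-OHT replicate 1 of day 6, at 0.43, and lowest in the 4-OHT library of day 4, at -0.26. The first of these libraries also had the highest sums of Paneth (4969 CPM), enteroendocrine (738 CPM) and enterocyte markers (5021 CPM), whose part in the mitochondrial level was not tested.

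**Figure D1:**
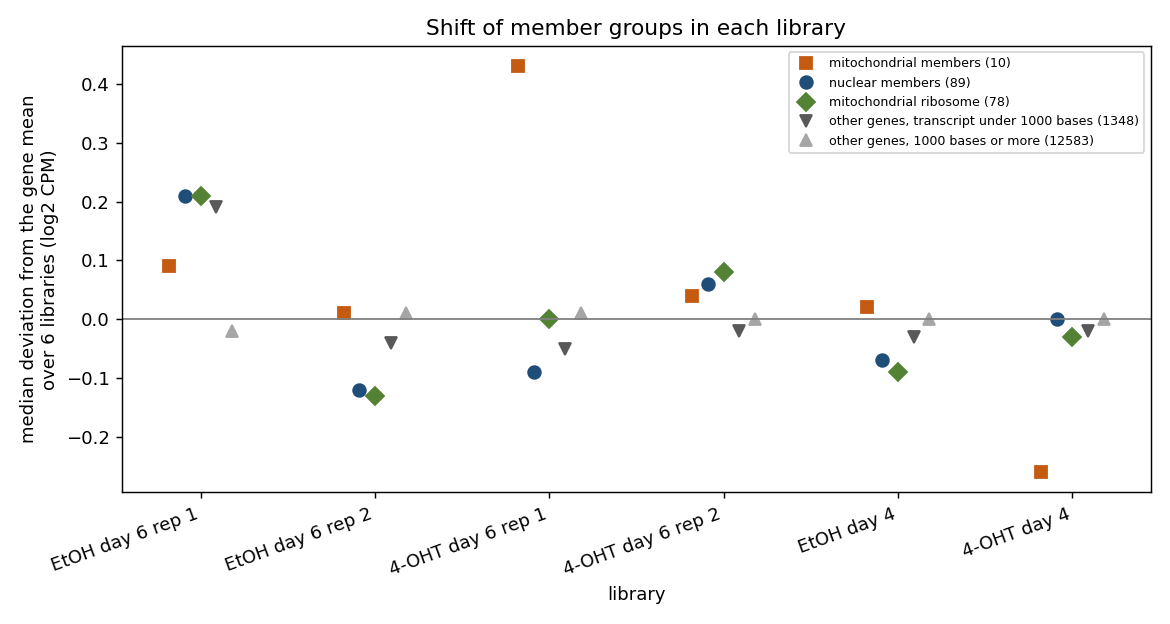
Median deviation of each gene group (log2 CPM, y axis) from its genes' means over 6 libraries (x axis). Nuclear members, mitochondrial ribosome genes and non-member genes with short transcripts sit at 0.19 to 0.21 in EtOH day 6 replicate 1. The mitochondrial members reach 0.43 in 4-OHT day 6 replicate 1.

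Per length, mt-Co1 was the most abundant member. It encodes the catalytic core of complex IV and averaged 14183 CPM per kilobase of transcript. Mitochondrial members with little or no copied sequence followed in the order mt-Nd1 (5256 CPM per kilobase), mt-Cytb (2822), mt-Nd2 (2596) and mt-Nd5 (1527). The partly copied mt-Nd4 was at 1110 CPM per kilobase. The mt-Nd6 gene, the one protein-coding gene on the other strand, was at 618 CPM per kilobase. The strand setting of the counting is not given, and the part of reads from the opposite strand in this value was not tested. The wholly copied members were far lower, at 26.4 (mt-Co2), 18.2 (mt-Co3) and 10.1 CPM per kilobase (mt-Atp6). Reads that match both places equally are held outside the genes, so these values cannot be read as the levels of the transcripts. The same limit holds for the copied parts of mt-Co1 and mt-Nd4, with 30.8% and 60.8% of their 100-base windows copied. The further mitochondrial genes mt-Nd3, mt-Nd4l and mt-Atp8 fell under the threshold of membership, the first at a mean of 2.77 CPM. All 3 lie wholly within the copied stretch.

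The 5 mitochondrial members of complex I are subunits of its membrane arm. For mt-Nd1 the levels were 5337 and 4443 CPM (EtOH) and 6421 and 5091 CPM (4-OHT) at day 6, and 4526 and 4364 CPM at day 4. For mt-Nd2 they were 2545 and 2379 CPM (EtOH) and 3388 and 2769 CPM (4-OHT) at day 6, and 2773 and 2311 CPM at day 4. Only mt-Nd2 had both libraries labelled 4-OHT above both EtOH libraries at day 6 among these 5 genes, a separation seen upwards in 20.5% of all genes tested. Its log2 fold change was 0.32 (SE 0.18, edgeR quasi-likelihood adjusted p = 0.649). For mt-Nd4 the levels were 1598 and 1427 CPM (EtOH) and 2019 and 1321 CPM (4-OHT) at day 6. For mt-Nd5 they were 2042 and 3130 CPM (EtOH) and 3758 and 2354 CPM (4-OHT). Both genes overlapped between the groups and were highest in 4-OHT replicate 1. The mt-Nd6 gene was at 334 and 314 CPM (EtOH) and 377 and 279 CPM (4-OHT), again with overlap. All 5 had day 6 log2 fold changes above 0, from 0.01 to 0.32 (median 0.23), and all 5 were below 0 at day 4, from -0.44 to -0.05. The interaction of treatment and day passed the test for none of them (edgeR quasi-likelihood adjusted p = 1 for each).

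The remaining mitochondrial members belong to complexes III to V. The mt-Cytb gene, for cytochrome b of complex III, was at 3382 and 3059 CPM (EtOH) and 4341 and 2645 CPM (4-OHT) at day 6, and at 3382 and 2563 CPM at day 4. The day 6 groups overlapped (log2 fold change 0.11, SE 0.23). For mt-Co1 the levels were 20833 and 22634 CPM (EtOH) and 22770 and 23100 CPM (4-OHT) at day 6, and 22567 and 19575 CPM at day 4. The 4-OHT libraries were just above both EtOH libraries at day 6 (log2 fold change 0.07, SE 0.16, edgeR quasi-likelihood adjusted p = 0.959) and below at day 4 (-0.2). Of the 3 copied members, mt-Co3 was the 1 mitochondrial member below 0 at day 6, at 24 and 17.3 CPM (EtOH) and 17.2 and 14.8 CPM (4-OHT). Its groups did not overlap (log2 fold change -0.37, SE 0.24, edgeR quasi-likelihood adjusted p = 0.713), and it was also lower at day 4 (-0.51). The copied mt-Co2 and mt-Atp6 overlapped between the labels at day 6, with 0.12 and 0.05.

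**Figure D2:**
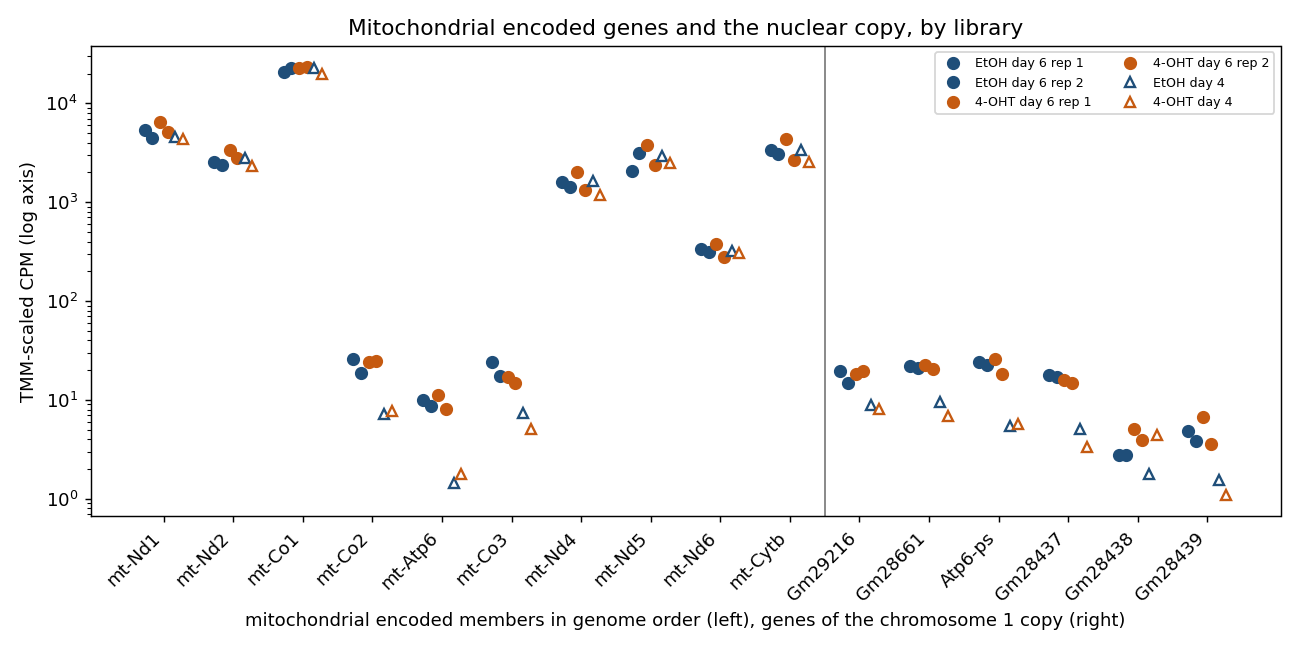
TMM-scaled CPM on a log axis for the 10 mitochondrial encoded members (left) and 6 tested genes annotated in the chromosome 1 copy (right). Points are libraries, blue EtOH and orange 4-OHT, filled circles for day 6 and open triangles for day 4. The copied mt-Co2, mt-Atp6 and mt-Co3 lie at 1.44 to 25.7 CPM and are lower at day 4, while mt-Co1 stays between 19575 and 23100 CPM.

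Among the 35 nuclear members of complex I, 30 had day 6 log2 fold changes below 0, with a median of -0.11, and 0 passed the test. EtOH replicate 1 was the highest library for 31 of the 35. The lowest value was that of Ndufb1, an accessory subunit. It was at 10.7 and 8.52 CPM (EtOH) and 6.6 and 6.91 CPM (4-OHT) at day 6, and at 7.08 CPM (EtOH) and 12.4 CPM (4-OHT) at day 4. The day 6 groups did not overlap (log2 fold change -0.52, SE 0.28, edgeR quasi-likelihood adjusted p = 0.636), a separation seen downwards in 18.4% of all genes tested, and the day 4 difference was 0.8 in the other direction. Its interaction term was -1.32 (SE 0.49), with an unadjusted p = 0.0185 and an adjusted p = 1 by edgeR's quasi-likelihood test. Of its exon bases 41.8% overlap Cpsf2 on the other strand, and the strand setting of the counting is not given in the sources used here. In all, 15 members had at least 25% of their exon bases in another gene. Among those named here, Ndufa6 (25.6%), Cox5a (41.4%) and Ndufaf2 (47.2%) overlap genes on the other strand too. The highest value was that of the accessory subunit Ndufa6, at 103 and 99.2 CPM (EtOH) and 98 and 119 CPM (4-OHT), with overlap (0.1, SE 0.17). Ndufs1, which carries iron-sulphur clusters, was at 153 and 153 CPM (EtOH) and 138 and 163 CPM (4-OHT), and Ndufv1, the NADH-binding subunit, at 255 and 204 CPM and at 201 and 240 CPM. The groups overlapped for both core subunits.

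Complex II gave day 6 log2 fold changes of -0.16 to 0.15 over its 4 subunits (median -0.01), all with intervals within a 1.5-fold change. Sdha, the flavoprotein that oxidises succinate, was at 618 and 680 CPM (EtOH) and 653 and 785 CPM (4-OHT) at day 6, and at 680 and 657 CPM at day 4 (day 6 log2 fold change 0.15, SE 0.18). Sdhb, its iron-sulphur partner, was at 218 and 189 CPM (EtOH) and 163 and 201 CPM (4-OHT) at day 6, and at 189 and 161 CPM at day 4 (-0.16, SE 0.18). The groups overlapped for both genes. At day 4 all 4 subunits were lower in the library labelled 4-OHT, by a median of -0.17, with no replicate.

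In complex III the 8 nuclear members had a median of -0.01 on the log2 scale at day 6. Uqcrfs1, the Rieske iron-sulphur protein, was at 212 and 189 CPM (EtOH) and 227 and 239 CPM (4-OHT) at day 6, and at 189 and 212 CPM at day 4. Its day 6 groups did not overlap, and the difference did not pass the test (0.21, SE 0.16, edgeR quasi-likelihood adjusted p = 0.79). Uqcr11, a small accessory subunit, was at 107 and 72.4 CPM (EtOH) and 70.8 and 85.8 CPM (4-OHT) at day 6 and at 87.2 and 99.3 CPM at day 4. Here the 2 EtOH replicates lay further apart than the group means (-0.2, SE 0.21). Uqcrc1, a core protein and the most abundant of them per length (228 CPM per kilobase), had a day 6 log2 fold change of 0 (SE 0.18).

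Complex IV included 12 nuclear members, whose log2 fold changes at day 6 had a median of -0.07. Cox5a, a matrix-side subunit, was at 46.7 and 30.3 CPM (EtOH) and 38.7 and 46.7 CPM (4-OHT) at day 6, and at 41.8 and 52.6 CPM at day 4 (day 6 log2 fold change 0.15, SE 0.23). Ndufa4l2, a paralogue of the complex IV subunit Ndufa4 and known as a hypoxia-induced gene, was the most variable member. It was at 2.38 and 14.3 CPM (EtOH) and 0.233 and 5.46 CPM (4-OHT) at day 6, and at 17.1 CPM (EtOH) and 6.52 CPM (4-OHT) at day 4. The day 6 groups overlapped, and the log2 fold change of -1.56 had an SE of 1.89 and a 95% interval from -8.22 to 5.1 (edgeR quasi-likelihood adjusted p = 0.913). Without 4-OHT replicate 2 the value was -5.12 and passed the test (edgeR adjusted p = 6.4e-08), with 4-OHT replicate 1 alone in its group. Of its exon bases 63.3% overlap Shmt2 on the other strand. The part of Shmt2 reads in these values was not tested.

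For complex IV subunits with tissue isoforms, the widely expressed form was the higher one in every library for the 5 pairs compared. Cox4i1 was at 325 to 457 CPM, while Cox4i2 was at 0 CPM in all 4 day 6 libraries and at 0.205 and 0.0679 CPM at day 4. Cox6a1 was at 279 to 350 CPM and Cox6a2 at 0.0679 to 1.39 CPM. Cox6b1 was at 151 to 197 CPM, and Cox6b2 at 1.07 to 3.48 CPM at day 6 and at 4.31 and 10.3 CPM at day 4. Cox7a2 was at 99 to 131 CPM and Cox7a1 at 1.77 to 3.76 CPM. Cox8a reached 245 CPM, and Cox8b was at 0 to 0.34 CPM. The lower isoform of each pair was under the threshold of membership. Ndufa4 was at 86.9 to 114 CPM. None of the higher isoforms passed the test at day 6, with log2 fold changes from -0.16 (Cox6b1) to 0.06 (Cox8a).

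All 17 nuclear members of complex V had day 6 log2 fold changes below 0, from -0.31 to -0.02 (median -0.11), and 0 passed the test. EtOH replicate 1 was the highest library for 16 of them. Without that library the median was 0.11, with 15 above 0. Corrected for transcript length the median was -0.05. Atp5f1b, the catalytic beta subunit, was the most abundant nuclear member per length (1144 CPM per kilobase). It was at 2506 and 2199 CPM (EtOH) and 2124 and 2396 CPM (4-OHT) at day 6 and at 2037 and 1956 CPM at day 4. Atp5f1c, the central stalk subunit gamma, had the highest day 6 value (-0.02, SE 0.17), with 378 and 331 CPM (EtOH) and 338 and 363 CPM (4-OHT). Atp5me, a small membrane subunit, had the lowest, at 20.9 and 12.5 CPM (EtOH) and 12.6 and 14.4 CPM (4-OHT), and reached 14.5 CPM (EtOH) and 22.6 CPM (4-OHT) at day 4. The day 6 groups overlapped for both.

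The 3 Atp5mc genes encode the same mature c subunit of the ATP synthase ring with different import sequences. Atp5mc3 was at 335 to 437 CPM, Atp5mc1 at 167 to 250 CPM and Atp5mc2 at 98.2 to 124 CPM. Their day 6 log2 fold changes were -0.11, -0.21 and -0.03. Of their 100-base transcript windows, 65.3% (Atp5mc1) and 87.5% (Atp5mc2) also occur elsewhere in the genome, against 0% for Atp5mc3, so the levels of the first pair are uncertain. Among all nuclear members, 63 had no such window and 5 had at least 50%.

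The 13 nuclear members grouped as assembly factors were 8 Ndufaf and 4 Sdhaf genes, which help build complexes I and II, and Cox7a2l. They centred on -0.04 (median log2 fold change) at day 6. Ndufaf7, a methyltransferase for complex I assembly, was at 27 and 20.2 CPM (EtOH) and 33.4 and 26 CPM (4-OHT) at day 6, and at 20.9 and 26.6 CPM at day 4 (day 6 log2 fold change 0.33, SE 0.22). Ndufaf2 was at 16.9 and 11.1 CPM (EtOH) and 10.3 and 12 CPM (4-OHT) at day 6 (-0.34, SE 0.27). The groups overlapped in both. Sdhaf4, an assembly factor of complex II, was at 4.17 to 6.7 CPM. Cox7a2l, known for joining complexes III and IV into supercomplexes, was at 175 and 164 CPM (EtOH) and 149 and 165 CPM (4-OHT) at day 6, with -0.12 (SE 0.16).

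**Figure D3:**
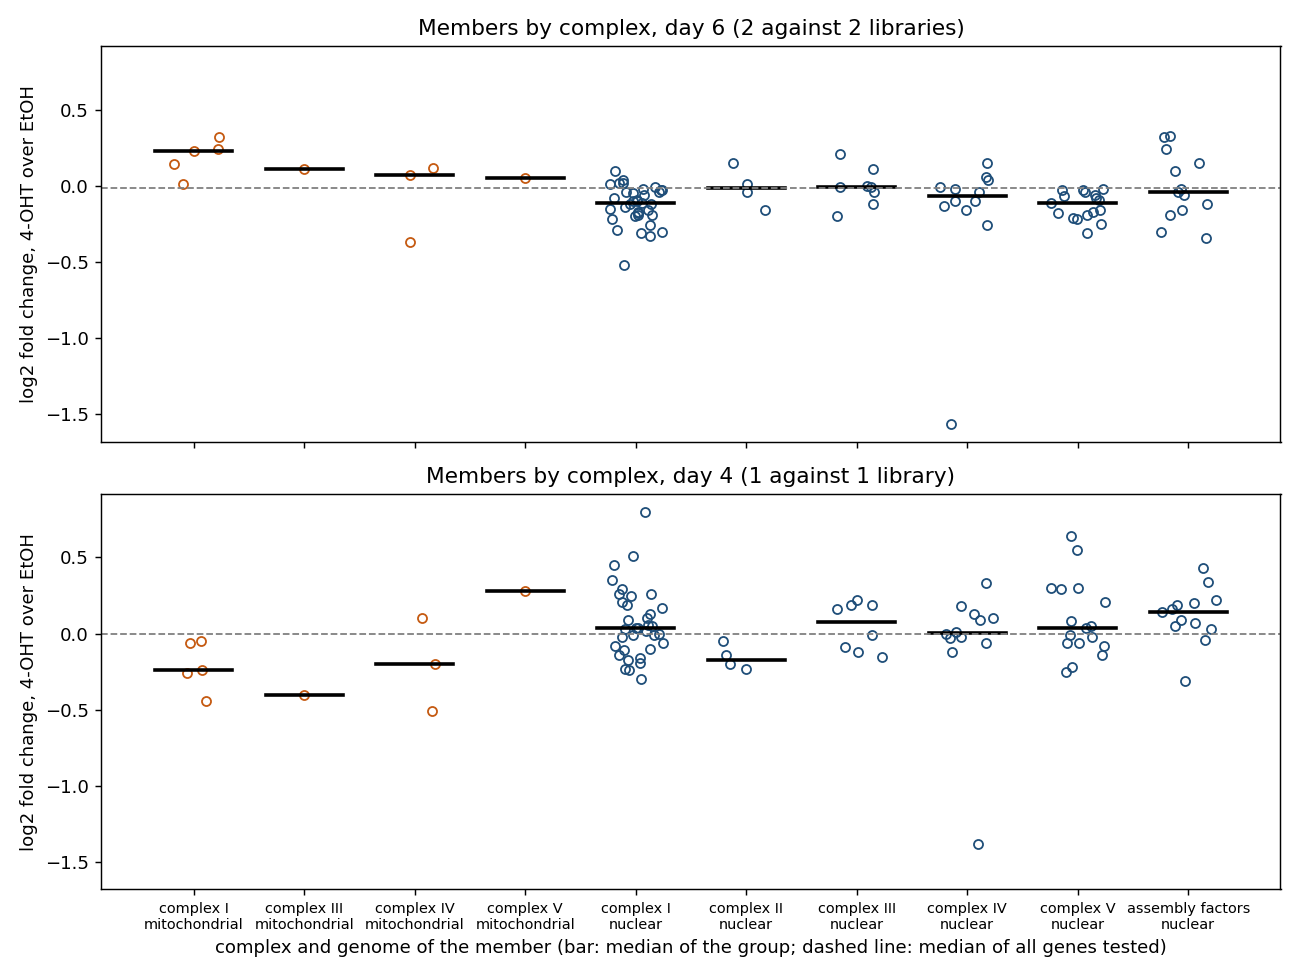
Log2 fold change of every member between libraries labelled 4-OHT and EtOH (y axis), by complex and genome (x axis), at day 6 (top) and day 4 (bottom). Orange circles are mitochondrial and blue circles nuclear members, bars are group medians and the dashed line is the median of all genes tested. The mitochondrial complex I genes have medians of 0.23 at day 6 and -0.24 at day 4, and Ndufa4l2 is the low point of complex IV on both days.

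Over both days, with day as a term and 3 libraries against 3, again 0 members passed, where 4.02% of all genes did (3.36% higher and 0.661% lower). The smallest adjusted p was 0.313, for mt-Co3 (log2 fold change -0.41, edgeR quasi-likelihood F test), which was also the 1 member with an unadjusted p under 0.05. DESeq2 and limma-voom called 0 members as well. The standard errors were smaller here (median 0.14), and the 95% interval lay within a 1.5-fold change for 87 of the 99 members and within 2-fold for 98. The exception to the latter was Ndufa4l2 (-1.5). The medians were 0.04 for the mitochondrial and -0.04 for the nuclear members. This comparison shares its day 6 libraries with the one above.

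At day 4, where 1 library stood against 1 and no test was made, 2 members lay past a 1.5-fold rise in the library labelled 4-OHT and 1 lay past a 1.5-fold fall. Over all genes these shares were 11.1% and 6.52%. The higher ones were Ndufb1 (0.8) and Atp5me (0.64), and the lower one was Ndufa4l2 (-1.38). The medians were -0.22 for the mitochondrial and 0.04 for the nuclear members, so the sign of each was opposite to that of day 6. No member passed the test of the interaction between treatment and day (edgeR quasi-likelihood, 0 of 14060 genes, 0%), and Ndufb1 was the 1 member with an unadjusted p under 0.05, beside 1.66% of all genes. DESeq2 called 6 genes, none of them a member.

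Between the days, 3 members differed, all of them copied mitochondrial genes that were higher at day 6. Over all genes tested, 0.384% passed in either direction, 0.263% higher and 0.121% lower at day 6. For mt-Atp6, a subunit of the proton channel of ATP synthase, the levels were 9.95, 8.69, 11.2 and 8.14 CPM at day 6 and 1.44 and 1.77 CPM at day 4 (log2 fold change 2.57, SE 0.29, edgeR quasi-likelihood adjusted p = 0.00472). For mt-Co2, which takes electrons from cytochrome c, they were 25.7, 18.8, 24.1 and 24.5 CPM at day 6 and 7.23 and 7.74 CPM at day 4 (1.64, SE 0.19, edgeR quasi-likelihood adjusted p = 0.00586). For mt-Co3, a core subunit of complex IV, they were 24, 17.3, 17.2 and 14.8 CPM at day 6 and 7.29 and 5.09 CPM at day 4 (1.57, SE 0.21, edgeR quasi-likelihood adjusted p = 0.012). In each gene both day 4 libraries lay below all 4 day 6 libraries. Both day 4 levels of mt-Atp6 were under the 5 CPM of the membership rule, and its mean of 6.82 CPM passed only through day 6. Its place among the 3 is therefore not independent of the rule. With only 2 day 4 libraries, the calls depended on each. Without the 4-OHT library of day 4 the adjusted p rose to 0.0518 (mt-Atp6), 0.074 (mt-Co2) and 0.15 (mt-Co3), and without the EtOH library to 0.0512 (mt-Co2) and 0.0872 (mt-Co3).

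None of the other 7 mitochondrial members passed the test between the days. The 5 with at most 3.19% of their 100-base windows copied had log2 fold changes of 0.05 to 0.25 (smallest edgeR quasi-likelihood adjusted p = 0.528), mt-Co1 of 0.08 (SE 0.12) and mt-Nd4 of 0.18 (SE 0.19). The mt-Nd3 gene, under the threshold of membership, lies in the copied stretch and holds its 1 mismatch, with 98.8% of its 100-base windows copied. It was at 3.55, 2.32, 3.3 and 2.73 CPM at day 6 and at 1.8 and 2.92 CPM at day 4 (0.36, SE 0.35, edgeR quasi-likelihood adjusted p = 0.717), with overlap. Of the 6 tested genes annotated within the chromosome 1 copy, 3 passed, all higher at day 6. Atp6-ps was at 24.3, 22.8, 26.2 and 18.1 CPM at day 6 and at 5.39 and 5.77 CPM at day 4 (2.03, edgeR quasi-likelihood adjusted p = 0.00374). Gm28437, the copy of mt-Co3, gave 1.96 (adjusted p = 0.00374) and Gm28661, the copy of mt-Co2, 1.4 (adjusted p = 0.00957), both by edgeR's quasi-likelihood test. The other 3 did not pass. Gm29216, the copy of part of mt-Co1, gave 1.09 (edgeR adjusted p = 0.0534) and Gm28439 gave 1.84 (edgeR adjusted p = 0.107). Gm28438, the copy of mt-Nd3, gave 0.3 (edgeR adjusted p = 0.735). Its 4-OHT library of day 4, at 4.41 CPM, lay above both EtOH libraries of day 6, at 2.75 and 2.78 CPM. How the reads counted to either place were assigned to it, whether reads of mt-Co2, mt-Atp6 and mt-Co3 came from mitochondrial or nuclear DNA, and the part of sequencing batch and read length, was not tested. The share of reads aligned to several places was 5.22% to 5.77% at day 6 and 4.65% to 4.85% at day 4.

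**Figure D4:**
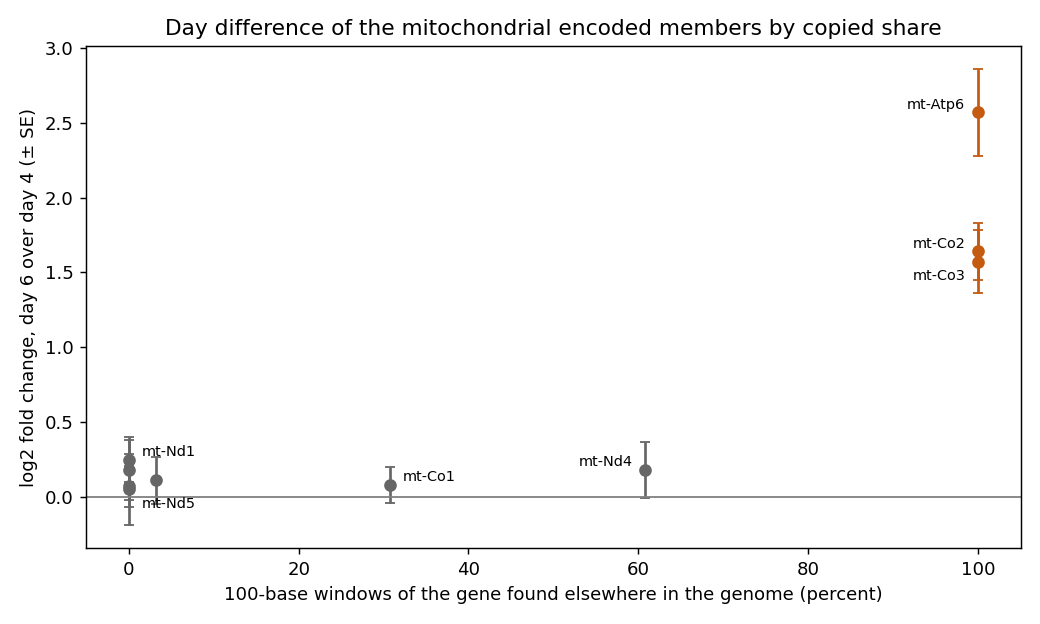
Log2 fold change between day 6 and day 4 with its SE (y axis) for the 10 mitochondrial encoded members against the percentage of their 100-base windows that also occur elsewhere in GRCm39 (x axis). Orange points passed the adjusted test. The 3 wholly copied members are at 1.57 to 2.57 and the other 7 at 0.05 to 0.25.

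The nuclear members were close between the days. Their median log2 fold change was 0.07 (day 6 over day 4), 0 of 89 passed, and the 95% interval lay within a 1.5-fold change for 73. The medians by complex were 0.04 (complex I), 0.17 (II), 0.02 (III), 0 (IV) and 0.1 (V), and 0.13 for the assembly factors, of which 12 of 13 were above 0. Cox7a2l had the smallest adjusted p among nuclear members (0.384, log2 fold change 0.27, edgeR quasi-likelihood test).

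The promoters of the nuclear members were searched for the letters of motifs known from respiratory genes, on both strands, from 250 bases before to 50 bases after the annotated start in GRCm39. The ETS motif CCGGAAG, bound by GABPA, stood in 17 of 89 promoters (19.1%), against 15.6% of the 12297 promoters of tested protein-coding genes and 10.3% of all 21654. The NRF1 motif was counted in 4 spellings, which were chosen after matches had been seen, and its share depended on the spelling. The full consensus of 12 letters stood in 3 of 89 (3.37%), against 2.55% of tested and 1.6% of all genes. Its central 10 letters stood in 9 (10.1%), against 4.65% and 2.94%. With the pyrimidine in them fixed to T they stood in 6 (6.74%), against 1.81% and 1.15%, and with any base there in 15 (16.9%), against 9.22% and 5.8%. A YY1 motif of 11 letters stood in 2 of 89 (2.25%), against 0.919% and 0.559%. The ETS motif and the NRF1 consensus both stood in 1 member, Sdhd (1.12%), against 0.447% of tested genes. A match is a description and not a binding site. The 250 bases before the start are shown for Ndufb4, an accessory subunit of complex I, as the example of an NRF1 consensus match, in capitals, near the start of a nuclear member.
Ndufb4 (chr16:37474816-37475065, minus strand): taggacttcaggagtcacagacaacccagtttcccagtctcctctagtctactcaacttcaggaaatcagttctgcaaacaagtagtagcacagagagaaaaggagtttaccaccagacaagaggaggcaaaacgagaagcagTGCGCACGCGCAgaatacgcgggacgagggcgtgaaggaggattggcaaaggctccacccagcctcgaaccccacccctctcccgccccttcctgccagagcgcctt

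Ndufb4 was at 26.1 and 21 CPM (EtOH) and 19.6 and 22.6 CPM (4-OHT) at day 6, with overlap (log2 fold change -0.16, SE 0.21), and at 25.8 and 26.8 CPM at day 4. Of its 100-base transcript windows 38% also occur elsewhere in the genome, so its level is uncertain. Sdhd, a membrane anchor of complex II, was at 258 and 224 CPM (EtOH) and 233 and 236 CPM (4-OHT) at day 6, again with overlap (-0.04, SE 0.17). For the regulators behind the motifs, Nrf1 was at 54.2 and 46.5 CPM (EtOH) and 40.6 and 42.4 CPM (4-OHT) at day 6. Gabpa was at 59.8 and 77.9 CPM (EtOH) and 76.2 and 71.1 CPM (4-OHT). Neither regulator passed the test, with log2 fold changes of -0.28 (SE 0.18) and 0.1 (SE 0.18).

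In the lists of genes around the respiratory chain, few genes passed. Of 13 biogenesis regulators, 1 was lower at day 6: Esrrg, a nuclear receptor known to drive respiratory genes, at 33.9 and 42 CPM (EtOH) and 21.5 and 15.4 CPM (4-OHT) (log2 fold change -1.04, SE 0.22, edgeR quasi-likelihood adjusted p = 0.0315). Leaving out 4-OHT replicate 2, EtOH replicate 1 or EtOH replicate 2 of day 6 raised the adjusted p to 0.321, 0.0567 and 0.0919 in edgeR's quasi-likelihood test. It was also lower at day 4, at 50.6 CPM (EtOH) and 21.3 CPM (4-OHT), and over both days (-1.11, edgeR quasi-likelihood adjusted p = 0.00404). Its relative Esrra gave 0.04 (SE 0.17) and the coactivator Ppargc1a 0.57 (SE 0.49), neither past the test. Ppard, a fatty-acid-sensing receptor, was higher over both days (0.55, edgeR quasi-likelihood adjusted p = 0.0316). In all, 1 of the 13 was higher and 1 lower over both days, and the list's day 6 median was 0.01.

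Of 21 genes of the tricarboxylic acid cycle and pyruvate entry, 0 passed at day 6 and 2 were higher over both days. Pcx, which makes oxaloacetate from pyruvate, was at 22.5 and 21.8 CPM (EtOH) and 35.2 and 45.2 CPM (4-OHT) at day 6, and at 22.8 and 46.1 CPM at day 4 (0.91 over both days, edgeR quasi-likelihood adjusted p = 0.00514). Ogdh, a subunit of the oxoglutarate dehydrogenase complex, gave 0.48 (edgeR quasi-likelihood adjusted p = 0.0431). Among 23 other respiratory chain components, Pdss1, of ubiquinone synthesis, was the 1 gene that passed over both days (-0.56, edgeR quasi-likelihood adjusted p = 0.0226). Among 16 tested stress response genes Atf5, a transcription factor of the mitochondrial stress response, was the 1 that passed over both days (-0.93, edgeR quasi-likelihood adjusted p = 0.0247). At day 6 and over both days, 0 of 34 tested further assembly factors, 0 of 26 genes of mitochondrial DNA maintenance, 0 of 78 ribosomal proteins and 0 of 18 glycolysis genes passed. With an unadjusted p under 0.05, the counts at day 6 were 0, 1, 0 and 1. Of the genes that passed over both days, Pcx lost its call without the 4-OHT library of day 4 (edgeR quasi-likelihood adjusted p = 0.0502). Ppard, Ogdh and Pdss1 each lost theirs without any 1 of 4 libraries, namely either day 4 library and either 4-OHT library of day 6, with edgeR adjusted p values up to 0.241, 0.198 and 0.133. Atf5 lost its call without any library but 4-OHT replicate 2 of day 6, with adjusted p values up to 0.218 (edgeR).

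The 2 mitochondrial ribosomal RNAs are transcribed from the same strand as the mitochondrial messenger RNAs other than that of mt-Nd6. For mt-Rnr2 the levels were 1533 and 1397 CPM (EtOH) and 2339 and 2194 CPM (4-OHT) at day 6, and 1639 and 1885 CPM at day 4. For mt-Rnr1 they were 665 and 554 CPM (EtOH) and 753 and 991 CPM (4-OHT) at day 6, and 523 and 755 CPM at day 4. Both were higher in every library labelled 4-OHT than in the EtOH libraries of the same day. At day 6 such an upward separation was seen in 20.5% of all genes tested. At day 6 the log2 fold changes were 0.63 (SE 0.17, edgeR quasi-likelihood adjusted p = 0.105) and 0.51 (SE 0.2, edgeR quasi-likelihood adjusted p = 0.333), and over both days 0.49 and 0.52 (edgeR quasi-likelihood adjusted p = 0.0684 and 0.0709). Neither passed the threshold. These are counts in libraries selected for poly(A) RNA.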

How the data were processed

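The authors deposited 1 table of whole-number read counts per gene for each of 6 libraries, not normalized, for 56884 Ensembl identifiers after 4 summary lines (unmapped, multimapping, no feature, ambiguous), which held 19.3% to 26.7% of the reads and stayed out of library sizes and tests. Per the submitters' processing notes STAR and mm39 were used. Versions, annotation and strand setting are not given in the sources used here. Per the labels' protocols, poly(A) RNA was fragmented and primed with random hexamers. Molecular identifiers are not mentioned, so counting errors are those of reads.

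Symbols, coordinates and exon overlaps came from GENCODE M39 (GRCm39), which matched 56323 identifiers with 99.96% of the counts. Counts were tested with edgeR 4.0.16 in R 4.3.3 (TMM scaling, filterByExpr with a minimum count of 10, robust quasi-likelihood F test, Benjamini-Hochberg over all genes, threshold 0.05). SE is the absolute log2 fold change over the square root of F. At day 4, fold changes used a prior count of 2 with no test. CPM are TMM-scaled, except for the threshold of 5, which used the library totals. Group sums used 2 replicates at most.

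Transcript windows of 100 bases were searched for exact copies elsewhere in GRCm39. Replicates differed beyond sampling noise (chi-square per degree of freedom 36.1 and 25.1), so each counted as 1. Alternatives included DESeq2 1.42.0 and limma-voom (limma 3.58.1). Tested on simulated data with 200 changed genes (13998 genes), the day 6 test recovered 99% of 4-fold and 61% of 2-fold changes, and 5.88% of its calls were unchanged genes. For both days (14077 genes) 8.57% and for the day difference (14041 genes) 6.15% of calls were unchanged genes.

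Earlier results of these data were known when the members, gene lists, motifs and naming rule were chosen. The text names all mitochondrial members, members past the threshold, the highest and lowest day 6 value of each complex, isoform pairs, members near the level threshold and list genes that passed. Ndufs1, Ndufv1, Uqcrc1, Atp5f1b, Sdhd and Ndufb4, and the spellings of the NRF1 motif, were added after values were seen. Among other genes named outside this rule are Cox6b1, Nrf1, Gabpa, Esrra and Ppargc1a.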

Additional observations from a re-analysis of the deposited data

How the results depend on the processing

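Scaling, filters, the tool, the length correction and each library were varied in turn. Of the members, the calls that moved included Ndufa4l2 at day 6 and the 3 copied mitochondrial genes between the days, all from leaving out a library or adding the replicate block. Uqcr10, an accessory subunit of complex III named here after its value was seen, was called lower at day 6 than at day 4 without EtOH replicate 1 of day 6 (-0.47, edgeR adjusted p = 0.0468, against -0.32 and 0.463 with all libraries). Keeping only members with a mean of at least 20 CPM, or leaving out those with at least 50% of their windows copied (chosen after the data were seen), left 0 members called between the days. Either choice takes out the 3 copied genes themselves, so this outcome was fixed in advance and does not show how the calls depend on processing. The genes called at day 6 (351) became 693 with no filter. Over both days they (565) became 857 with DESeq2 and 1066 with no filter. Between the days they (54) became 318 with DESeq2 and 768 with no filter, and for the interaction (0) DESeq2 gave 6. Without single libraries the genes called ranged from 177 to 483 (day 6), 340 to 791 (both days), 13 to 676 (between days) and 0 to 27 (interaction). The members called ranged from 0 to 1 lower at day 6, and from 0 to 3 higher and 0 to 1 lower between the days. The mitochondrial median ranged from -0.16 to 0.32 at day 6 and from -0.02 to 0.43 between the days, and the nuclear median from -0.25 to 0.11 at day 6. Where an arm kept 1 library, it was assumed to vary like the other group. The causes were not tested.

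The EtOH and 4-OHT libraries of day 6 share replicate numbers, which the labels do not tie to a shared culture. Deviations of same-numbered libraries correlated at 0.266 over 2 pairs. With the replicate block, 808 genes passed, and 972 with the block and the length correction. In both fits 1 member was called lower, Ndufa4l2, at -1.93 and -1.9 (edgeR adjusted p = 4.0e-05 and 0.000946, against 0.913 without the block). It was lower in the 4-OHT library of each same-numbered pair. The 10 mitochondrial members had a median of 0.09 with the block.

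Leaving out a library leaves 1 against 2 at day 6. Ndufa4l2 varied from 5 to 334 counts between libraries, and its interval at day 6 spans more than 2-fold either way.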
